A study of Mus musculus with 18 samples.

Results

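Skeletal muscle genes were measured in each of a series of whole mouse melanomas grown under the skin. The set holds 38 genes of the contractile apparatus, calcium handling and energy supply of muscle fibers, out of 50600 gene identifiers in the table of counts. They were named one by one by what they encode. This choice, like that of the other gene lists used below, was made with earlier results of these data known. All 38 were found, and 37 of them passed the filter on low counts. The slow myosin gene Myh7 did not pass.

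The tumors were B16F10, a melanoma cell line of C57BL/6 origin, grown under the skin of the right flank of C57BL/6 mice, and RNA was taken from the whole tumor 24 h after the last injection into it. After 1 dose, 2 tumors each had received PBS, unloaded extracellular vesicles (labelled Exosomes, and Exo in the plots), vesicles loaded with CL656 (exoCL656, 0.1 µg), CL656 at 20 µg or CL656 at 100 µg. After 2 doses given 3 days apart, 2 tumors each had received PBS, exoCL656 or CL656 at 20 µg, and 2 more had received CL656 in an amount that their labels do not give. CL656 is an agonist of STING, the sensor of cyclic dinucleotides, and the treatment protocol calls it CDN2. All groups share the strain, the single cell line and the injection site, the 2 tumors of a group are described as biological replicates, and the host keeps all of its own muscle, skin and immune cells. The total expected counts lay between 21608895 and 65983630 per tumor, the lowest in replicate 1 of CL656 20 µg after 2 doses.

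Skeletal muscle contracts when myosin heads of the thick filament pull on actin of the thin filament, after calcium released from the sarcoplasmic reticulum has moved troponin and tropomyosin aside. Fast and slow fibers use different copies of myosin, troponin and calcium pump genes, and the muscles of mouse limbs and trunk are mostly fast. Under the skin of the flank lies a thin sheet of striated muscle, the panniculus carnosus, with the muscles of the body wall beneath it. In bulk RNA, more muscle cells and more muscle RNA per cell cannot be told apart.

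The members were divided by role into thick filament (8 genes), thin filament (8), Z disc and scaffold (11), calcium handling (7) and energy and oxygen (4). Per unit of exon length, the most abundant on average over the 18 tumors were Acta1, the skeletal muscle actin, at 346.6 length-scaled units (TPM), the fast troponin C gene Tnnc2 at 132.7 TPM and Mylpf, the regulatory light chain of fast myosin, at 117.8 TPM. Atp2a1, the calcium pump of fast fibers, followed at 75.0 TPM. Ckm, the muscle creatine kinase that regenerates ATP, and Actn3, the α-actinin of fast fiber Z discs, led their roles at 56.3 and 35.4 TPM. Myh7, the myosin heavy chain of slow fibers and heart, was the lowest at 0.0163 TPM, and 15 tumors had 3 counts or fewer of it. In the GENCODE M21 annotation of GRCm38, the genes named first lie at chr8:123891769-123894751 (Acta1, ENSMUSG00000031972), chr7:127208890-127214298 (Mylpf, ENSMUSG00000030672) and chr7:126445858-126463108 (Atp2a1, ENSMUSG00000030730). Ckm (ENSMUSG00000030399) lies at chr7:19404776-19422841, Actn3 (ENSMUSG00000006457) at chr19:4861216-4877909 and Ankrd1 (ENSMUSG00000024803) at chr19:36111961-36120099.

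Promoter sequences are shown for the most abundant member of each role that had one, because these genes carry the comparisons described here. They span 250 bases before to 50 after the annotated start (RefSeq, GRCm38.p6), read 5′ to 3′ on the strand of the gene. Capitals mark the E-box CANNTG (both strands), the CArG box and the MEF2 site (both strands) and TATAAA (the printed strand only).
Acta1, chr8:123894726-123895025, minus strand: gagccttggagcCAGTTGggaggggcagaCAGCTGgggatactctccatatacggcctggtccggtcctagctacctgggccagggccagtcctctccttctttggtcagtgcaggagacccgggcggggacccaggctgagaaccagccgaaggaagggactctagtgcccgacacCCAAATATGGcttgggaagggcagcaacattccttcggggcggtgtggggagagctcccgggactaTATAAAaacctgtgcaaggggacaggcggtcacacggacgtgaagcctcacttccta
Mylpf, chr7:127211358-127211657, plus strand: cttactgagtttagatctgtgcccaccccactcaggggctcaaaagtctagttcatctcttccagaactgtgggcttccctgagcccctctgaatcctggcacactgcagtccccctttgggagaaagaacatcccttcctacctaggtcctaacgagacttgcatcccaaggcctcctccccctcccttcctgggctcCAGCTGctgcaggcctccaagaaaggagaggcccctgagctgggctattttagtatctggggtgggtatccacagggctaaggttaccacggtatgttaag
Atp2a1, chr7:126463024-126463323, minus strand: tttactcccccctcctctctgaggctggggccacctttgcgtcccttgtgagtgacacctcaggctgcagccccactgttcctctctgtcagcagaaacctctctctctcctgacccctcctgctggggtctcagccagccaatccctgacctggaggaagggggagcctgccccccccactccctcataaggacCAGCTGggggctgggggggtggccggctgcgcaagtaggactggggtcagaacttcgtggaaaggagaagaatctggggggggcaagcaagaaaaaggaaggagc
Ckm, chr7:19410844-19411143, plus strand: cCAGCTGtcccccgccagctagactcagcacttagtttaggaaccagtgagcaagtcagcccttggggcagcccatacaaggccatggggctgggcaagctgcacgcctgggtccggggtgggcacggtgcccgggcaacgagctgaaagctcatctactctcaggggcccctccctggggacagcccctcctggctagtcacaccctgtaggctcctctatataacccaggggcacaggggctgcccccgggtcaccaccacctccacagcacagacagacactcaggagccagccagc
Ankrd1, chr19:36119795-36120094, minus strand: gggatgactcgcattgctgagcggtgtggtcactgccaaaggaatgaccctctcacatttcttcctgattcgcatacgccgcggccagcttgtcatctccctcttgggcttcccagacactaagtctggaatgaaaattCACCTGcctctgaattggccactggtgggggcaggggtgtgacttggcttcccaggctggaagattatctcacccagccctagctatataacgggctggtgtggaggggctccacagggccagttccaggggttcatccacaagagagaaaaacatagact
The E-box CAGCTG, 1 of the forms of CANNTG, begins at position -51 in Mylpf, -55 in Atp2a1, -221 in Acta1 and -249 in Ckm, with the base before the start counted as -1. Ankrd1 has CANNTG at -111 and no CAGCTG in this window. A CArG box begins at -73 and TATAAA at -7 in Acta1. Of the 30 members with a promoter sequence, 13 (43.3%) held CAGCTG, and 16.1% of all 27025 promoters of the same length did. CANNTG was in 24 member promoters (80.0%) and in 72.1% of all. A MEF2 site was in 6 (20.0%, all 3.26%), a CArG box in 3 (10%, all 1.57%) and TATAAA in 5 (16.7%, all 8.88%). These are matches of letters only.

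The muscle RNA in each tumor was first described by the share of all counts that fell on the 38 genes. The share was 0.698% and 0.461% in the 2 tumors given 2 doses of CL656 20 µg. In the 16 other tumors it lay between 0.00452% and 0.117%, so that these 2 tumors stood above all others with no overlap. After 2 doses it was 0.0434% and 0.0611% with PBS, 0.0455% and 0.0487% with exoCL656, and 0.0222% and 0.0231% with CL656 of the amount not given. After 1 dose it was 0.0198% and 0.0305% with PBS, 0.0370% and 0.00452% with unloaded vesicles, and 0.117% and 0.0383% with exoCL656. It was 0.0177% and 0.0466% with 1 dose of CL656 20 µg, and 0.0921% and 0.104% with CL656 100 µg, where both tumors were above all PBS tumors. The highest share was 154-fold the lowest. The Wilson intervals at a confidence level of 0.95 reached at most 4.69% of the share to either side, and cover counting error only.

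**Figure D1:**
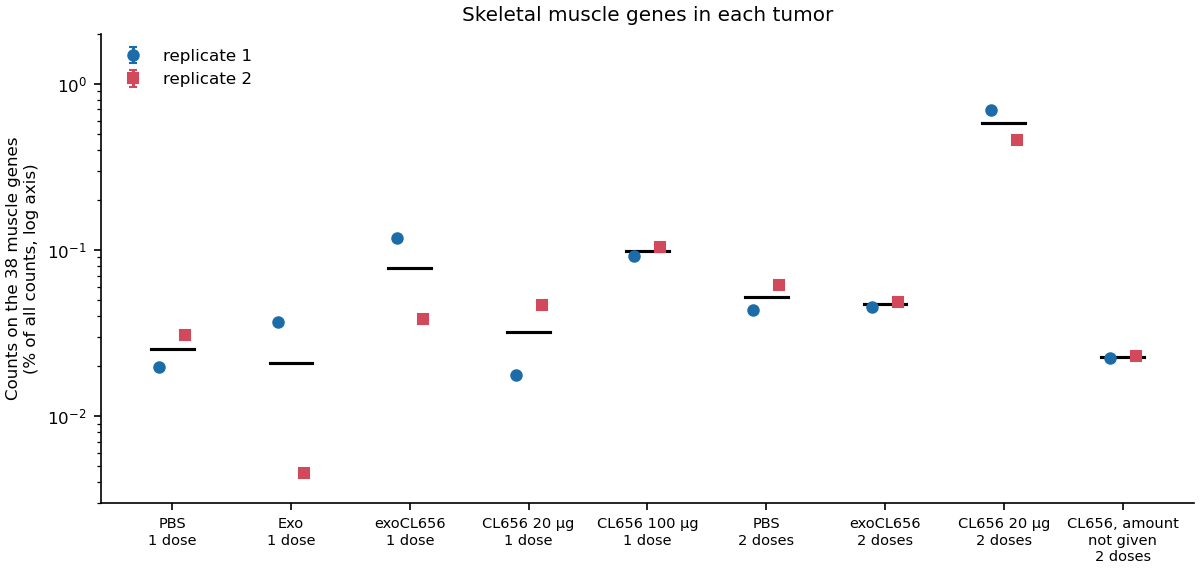
Counts on the 38 muscle genes as a percentage of all counts in each tumor (log axis), by group, with the mean of the group as a line. Circles are replicate 1, squares replicate 2, and the Wilson intervals are smaller than the symbols. Both tumors given 2 doses of CL656 20 µg (0.698% and 0.461%) lie above the 16 others, and replicate 2 of the unloaded vesicles (0.00452%) lies below them.

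As group values, the share was 0.580% ± 0.167 (SD, n = 2) after 2 doses of CL656 20 µg, 11.1 times that of PBS after 2 doses at 0.0522% ± 0.0125 (SD, n = 2). After 1 dose, CL656 100 µg had 0.0979% ± 0.00829 (SD, n = 2), 3.89 times the 0.0252% ± 0.00757 (SD, n = 2) of PBS. The exoCL656 tumors had 0.0777% ± 0.0558 (SD, n = 2) after 1 dose, where the SD is close to the mean, and 0.0471% ± 0.00229 (SD, n = 2) after 2 doses. These sums were not tested, because the members were chosen together.

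The same ordering held gene by gene. The highest of the 18 tumors was replicate 1 of CL656 20 µg after 2 doses for 25 members, and replicate 2 of that group for 10. Myh4 and Trdn were highest in replicate 1 of exoCL656 after 1 dose, and Myh7 in replicate 2 of CL656 20 µg after 1 dose. Both tumors of the group were above all 16 others for 32 members, 86.5% of the 37 tested, as they were for 13.6% of all genes tested, the exceptions being Myh2, Myh4, Myh7, Neb, Trdn and Pvalb. Scaled to the depth of each tumor (CPM, with TMM factors), the lowest tumor was replicate 2 of the unloaded vesicles for 32 members. In that tumor 8 members had 3 counts or fewer, and Mb (myoglobin, the oxygen store), Pvalb (parvalbumin, a calcium buffer of fast fibers), Myot (a Z disc protein) and Myh7 were at 0.

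**Figure D2:**
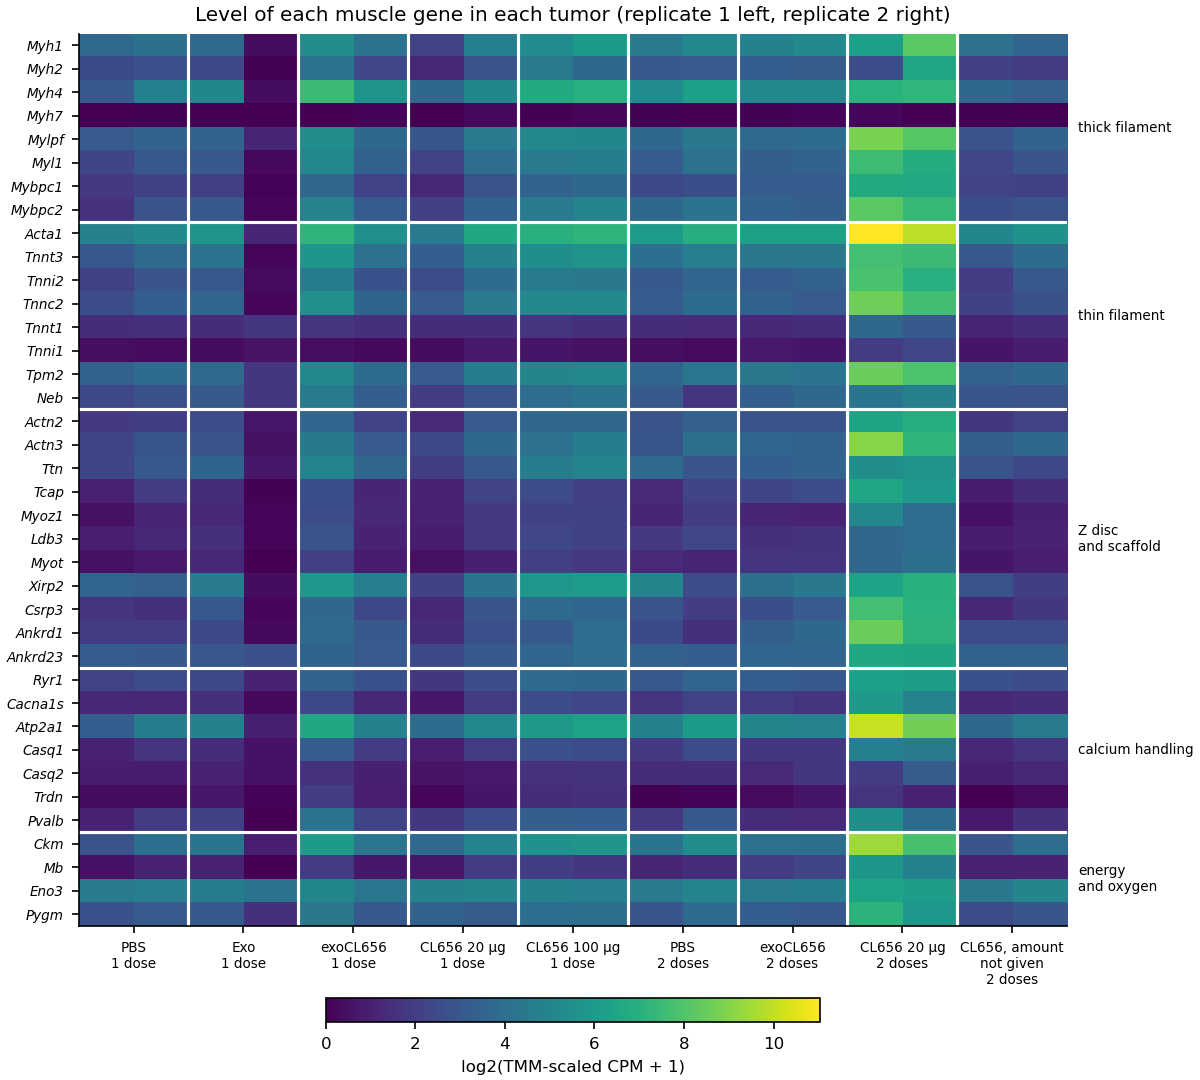
Level of each of the 38 genes (vertical, by role) in each of the 18 tumors (horizontal, replicate 1 left and replicate 2 right) as log2 of the CPM plus 1. The columns of CL656 20 µg after 2 doses are the brightest and replicate 2 of the unloaded vesicles is the darkest. Eno3 is at 17.9 CPM or more in every tumor and Myh7 is dark throughout.

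Some members stayed detectable in the tumor with the lowest share. Eno3, the muscle enolase of glycolysis, was at 17.9 CPM there, out of 43.7 CPM for all members together. Ankrd23, a titin-binding ankyrin repeat protein, was at 5.53 CPM and the slow troponin T gene Tnnt1 at 2.35 CPM in the same tumor. Between the lowest and the highest tumor, Eno3 differed 4.64-fold, Tnnt1 10.2-fold and Ankrd23 21.3-fold, against 1752-fold for Acta1 and 1148-fold for Atp2a1. Which cells hold the Eno3, Ankrd23 and Tnnt1 RNA of that tumor was not tested.

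The groups given CL656 at 20 µg and PBS, each in 2 doses, were compared to ask what the free agonist changed. Muscle genes of every role were higher in the CL656 tumors. Acta1 was at 2102 and 984.0 CPM after CL656 and at 66.5 and 116.8 CPM after PBS. Mylpf was at 449.7 and 280.1 CPM, against 11.8 and 20.2 CPM. Atp2a1 was at 1111 and 395.2 CPM, against 27.7 and 63.1 CPM. For these 3 genes the groups did not overlap, and replicate 1 was the higher CL656 tumor. Ckm was at 684.4 and 228.4 CPM, against 18.7 and 41.7 CPM. Actn3 was at 539.1 and 144.6 CPM, against 6.76 and 15.8 CPM. Both genes separated the groups in the same way.

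A gene was called where its ratio passed 2 and its p from edgeR's quasi-likelihood test, adjusted over the 16927 genes by the Benjamini-Hochberg method, was below 0.05. Of the 37 members tested, 31 were called higher and 0 lower, where 20.0% of all genes tested were called higher. The median log2 fold change was 3.63 over the members and 0.00 over all genes tested, and 36 of the 37 (97.3%) had both CL656 tumors above both PBS tumors, as 34.2% of all genes tested had. Acta1 rose by 4.08 ± 1.21 (SE) on the log2 scale (adjusted p = 0.0149), Mylpf by 4.52 ± 0.87 (adjusted p = 0.00143) and Ckm by 3.92 ± 1.08 (adjusted p = 0.0104). Actn3 rose by 4.93 ± 1.03 (adjusted p = 0.00228) and Atp2a1 by 4.06 ± 1.16 (adjusted p = 0.0125). The number called fell to 19 without replicate 1 of PBS, and was 29 or 30 without either CL656 tumor.

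**Figure D3:**
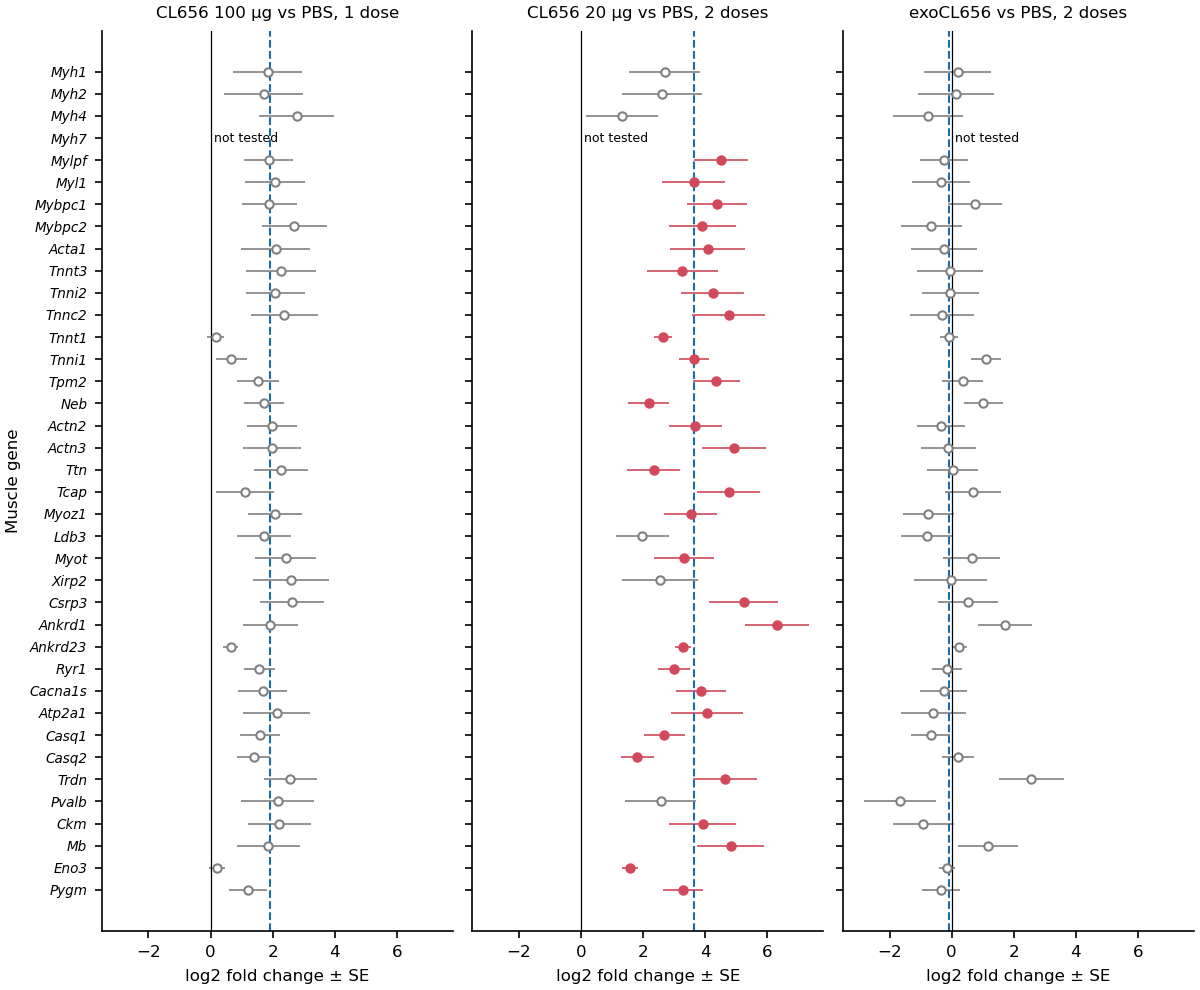
Log2 fold change with its standard error for each of the 37 members tested (vertical) in 3 comparisons with PBS at the same number of doses. Filled red points were called higher and open points were not called, and the dashed line is the median of the members (1.93, 3.63 and -0.08 from left to right). Members are called in the middle panel alone, where 31 points are filled.

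The smallest adjusted p-values belonged to Ankrd23, Tnnt1 and Tnni1, whose standard errors were small. Ankrd23 was at 95.4 and 85.9 CPM after CL656 and at 9.92 and 8.82 CPM after PBS, a rise of 3.28 ± 0.27 (SE) on the log2 scale (adjusted p = 9.29e-06, edgeR's quasi-likelihood test). Tnnt1 was at 12.2 and 7.67 CPM against 1.72 and 1.47 CPM, a rise of 2.64 ± 0.29 (adjusted p = 6.09e-05). Tnni1, the slow troponin I gene, was at 2.92 and 4.17 CPM against 0.327 and 0.241 CPM, a rise of 3.64 ± 0.49 (adjusted p = 0.000183). None of these 3 genes overlapped between the groups, and in the 16 other tumors Ankrd23 stayed between 4.48 and 14.2 CPM, Tnnt1 between 1.2 and 2.35 CPM and Tnni1 between 0.207 and 0.799 CPM. The largest change was that of Ankrd1, a cardiac and skeletal muscle ankyrin repeat protein known to rise in stretched, injured or denervated muscle, with 375.8 and 137.8 CPM against 4.53 and 1.93 CPM. It rose by 6.31 ± 1.03 (SE) on the log2 scale (adjusted p = 0.000539).

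By role, all 8 thin filament genes and all 4 genes of energy and oxygen were called higher, with median log2 fold changes of 3.86 and 3.60. In the Z disc and scaffold group 9 of 11 were called (median 3.52), the others being Ldb3 and Xirp2. In calcium handling 6 of 7 were called (median 3.00), with Pvalb as the other. In the thick filament group 4 of the 7 tested were called, namely Mylpf, Myl1, Mybpc1 and Mybpc2, light chains of myosin and the myosin-binding proteins C. The members not called were thus Myh1, Myh2, Myh4, Pvalb, Xirp2 and Ldb3. Of the 13 members typical of fast fibers 9 were called, and of the 4 slow fiber members tested all 4 were, with medians of 3.63 and 3.14.

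The 3 fast myosin heavy chains did not follow the other muscle genes into the call. Myh4, the IIB chain of the fastest fibers, was at 131.2 and 153.1 CPM after CL656 and at 40.7 and 73.4 CPM after PBS. The log2 fold change of Myh4 was 1.32 ± 1.15 (SE), the smallest among the members (adjusted p = 0.355, edgeR's quasi-likelihood test). Myh1, the IIX chain, was at 74.4 and 293.2 CPM against 22.6 and 34.7 CPM (2.69 ± 1.15, adjusted p = 0.0693). Myh2, the IIA chain, was at 4.74 and 90.3 CPM against 7.65 and 8.03 CPM (2.61 ± 1.29, adjusted p = 0.111), so that the lower CL656 tumor was below both PBS tumors. Myh7 had 0.112 and 0.0265 CPM after CL656 and 0.0408 and 0.0219 CPM after PBS. The fast chains lie side by side on chromosome 11 and are close in sequence, so the assignment of shared reads among them is uncertain.

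Within a tumor, the length-scaled levels of the 4 chains divided differently between the 2 tumors given 2 doses of CL656 20 µg. Myh4 made up 63.8% of them in replicate 1 and 30.2% in replicate 2, and Myh2 made up 1.94% and 15%. Over all 18 tumors the share of Myh4 ran from 30.2% to 77.4%, and that of Myh7 from 0% to 0.217%. Relative to Ckm, the length-scaled level of Myh4 was 0.0929 and 0.325 in these 2 tumors. It was 1.05 and 0.853 after 2 doses of PBS, 0.981 and 1.04 after 2 doses of exoCL656, and 1.07 and 1.15 after 1 dose of CL656 100 µg. Low values also occurred elsewhere, with 0.161 in replicate 2 of the unloaded vesicles and 0.313 in replicate 2 of CL656 of the amount not given. Pvalb relative to Ckm was 0.182 and 0.174 in the CL656 20 µg 2-dose tumors and between 0.261 and 0.757 in all others but the one where it was at 0. Ankrd1 relative to Ckm was 0.554 and 0.609 there, within the range of the 2 exoCL656 2-dose tumors and the CL656 tumors of the amount not given. These ratios are descriptions and were not tested.

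**Figure D4:**
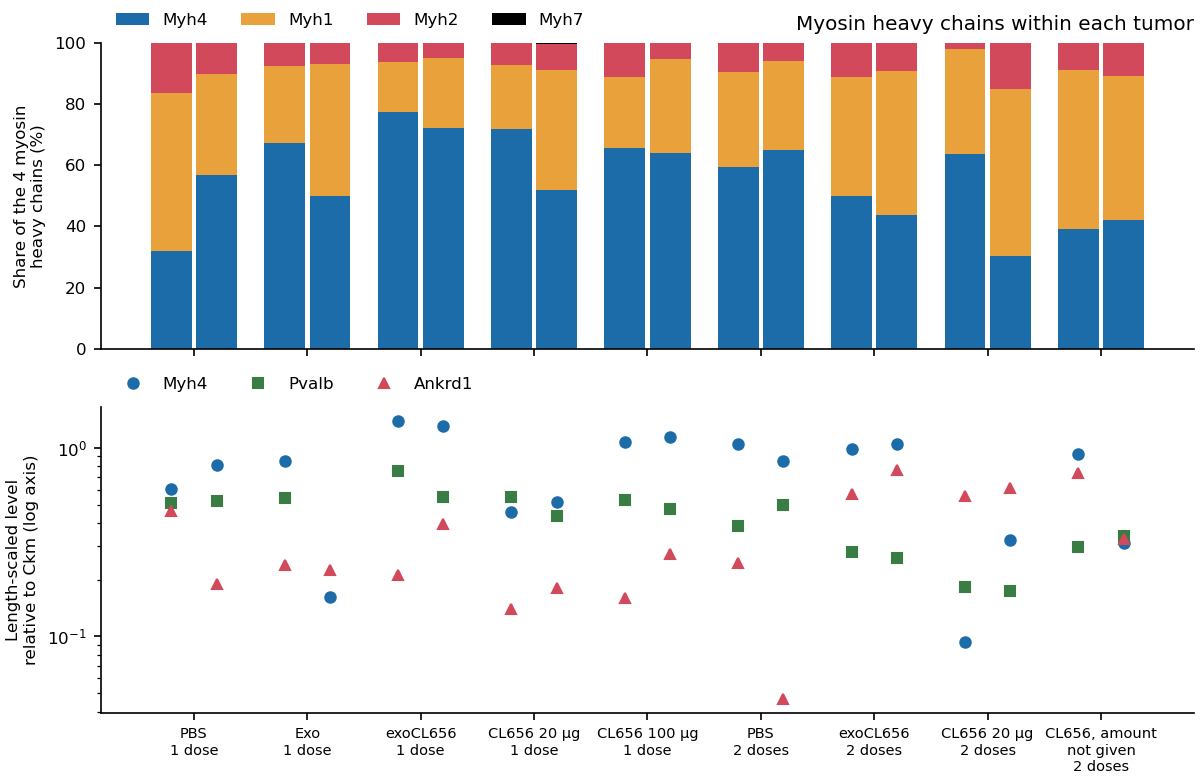
Top, share of each of the 4 adult myosin heavy chains in their summed length-scaled level in each tumor (percent, replicate 1 left). Bottom, length-scaled level of Myh4, Pvalb and Ankrd1 relative to Ckm (log axis, values of 0 not drawn). In the CL656 20 µg 2-dose tumors Myh4 is at 0.0929 and 0.325 of Ckm, while in both exoCL656 2-dose tumors it is near Ckm.

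Other muscle genes moved with the members. Of 41 further genes of muscle fibers, 38 were tested and 35 were called higher after 2 doses of CL656 20 µg against PBS, 0 lower, where 20.0% of all genes tested were called higher, with a median log2 fold change of 3.56. The most abundant of them, Trim63, a ubiquitin ligase of muscle wasting, was at 204.6 and 82.5 CPM, against 46.4 and 48.8 CPM. It was at 57.9 CPM in the tumor with the lowest share of member counts, so its level did not follow the members there. Of the muscle precursor and regeneration list, 5 of 7 tested were called higher (Cdh15, Myf6, Mymk, Myod1 and Myog), median 4.98. Myogenin (Myog), the differentiation factor of muscle precursors and of denervated fibers, was at 28.4 and 3.61 CPM, against 0.265 and 0.416 CPM after PBS and 0.760 and 0.817 CPM after exoCL656. Of 9 neuromuscular junction genes tested, 6 were called higher, among them Chrna1, a subunit of the acetylcholine receptor singled out after its values were seen, at 16.3 and 3.61 CPM against 0.265 and 0.197 CPM. Rapsn, the most abundant of the junction list, was not called, and its values overlapped, at 45.5 and 62.6 CPM against 42.7 and 54.4 CPM. In the CL656 100 µg tumors against PBS, where the median of the members was 1.93, the junction list had a median of 0.22 and the precursor list of 0.25. With 1 dose of exoCL656 against PBS, where the members had 1.59, the precursor list had a median of 0.25 and the junction list of -0.07. None of the 7 precursor genes tested was called there by edgeR's quasi-likelihood test, where 2.62% of all genes were. Against unloaded vesicles the precursor median was 1.79, with 1 of 7 tested (Cdh15) called beside 2.95% of all genes, and against CL656 20 µg it was 1.52. The members had 1.93 and 0.98 in these last 2 comparisons, while the junction list had 0.00 in both.

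Markers of other tissues were measured beside the muscle genes in the same comparison, in which 20.0% of all genes tested were called higher. The 9 melanocyte genes, which mark the B16F10 cells, summed to 7727 and 13690 CPM in the CL656 20 µg 2-dose tumors and to between 16020 and 26800 CPM in the 16 others, and 6 of 9 were called lower than with PBS, where 1786 of all 16927 genes tested were. Tyrp1, the most abundant of them, was at 1676 and 4182 CPM, against 9211 and 7876 CPM. The Schwann cell list summed to 27.4 and 6.37 CPM against 3.78 and 3.15 CPM, with 3 of 5 called higher. The tendon list summed to 47.0 and 36.9 CPM against 6.29 and 5.89 CPM, with 2 of 3 tested called higher. Of 8 smooth muscle genes tested 5 were called higher, and of 10 cardiac genes 4 were tested and all 4 called higher. Nppb, the most abundant cardiac gene, was at 38.5 and 40.2 CPM, against 13.8 and 13.3 CPM. The cardiac myosin Myh6, not among those tested, was at 0 counts in both CL656 tumors and at 2 or fewer in all others. The adipocyte list had 0 of 7 called by edgeR's quasi-likelihood test, with 85.9 and 29.2 CPM against 35.1 and 34.0 CPM. The keratinocyte list summed to 42.6 and 7.51 CPM against 2.70 and 1.73 CPM, with no overlap and a median log2 fold change of 3.06, and Sbsn alone was called, of 12. Leukocyte genes were called higher in 6 of 7 and endothelial genes in 0 of 5, with Kdr called lower. The part of these other tissues, and of the low depth of replicate 1, in the muscle values was not tested. Without that replicate 30 members were called.

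**Figure D5:**
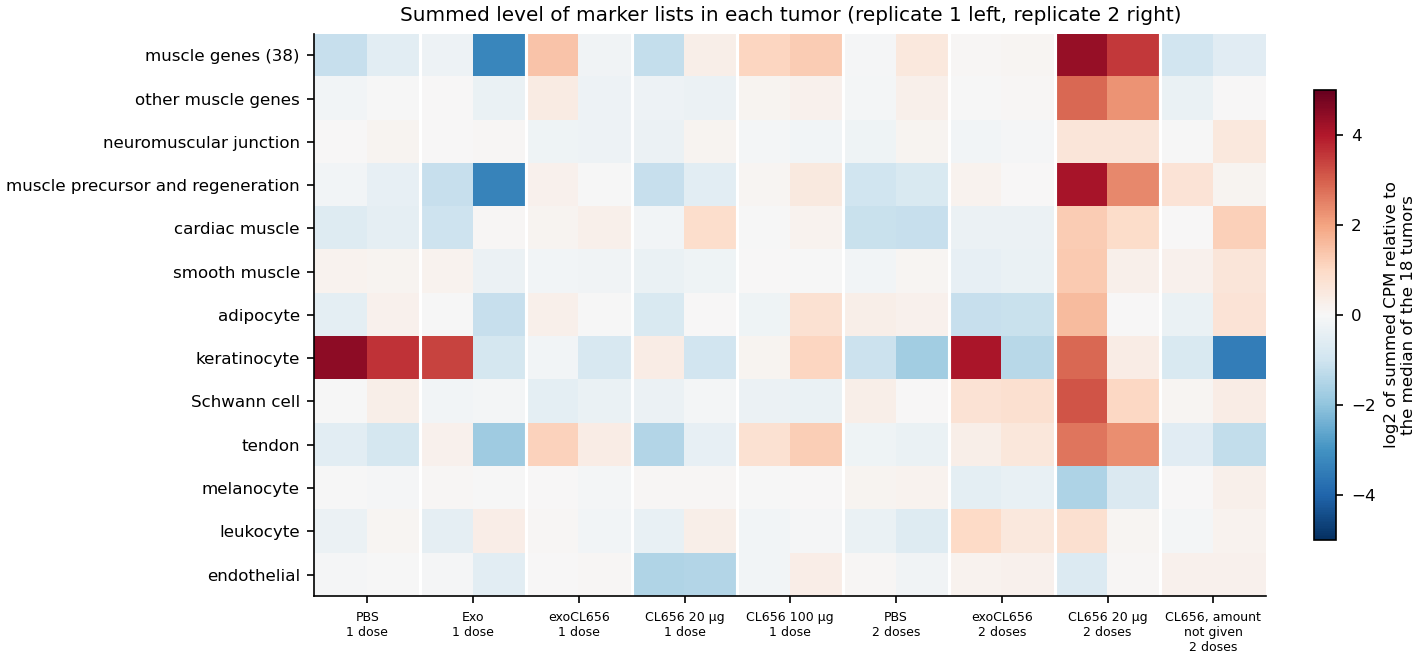
Summed level of each marker list (vertical) in each tumor (horizontal, replicate 1 left) as log2 of the summed CPM relative to the median of the 18 tumors. In the CL656 20 µg 2-dose tumors the muscle, precursor, tendon and Schwann cell lists are raised and the melanocyte list is lowered. The keratinocyte list is high in other tumors, among them both PBS tumors after 1 dose at 126.7 and 70.7 CPM.

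The 2-dose exoCL656 tumors were compared with the same PBS tumors. Acta1 was at 77.5 and 76.9 CPM after exoCL656, between the 66.5 and 116.8 CPM of PBS. Mylpf was at 13.1 and 13.7 CPM and Ckm at 16.5 and 15.7 CPM, the latter below both PBS tumors. By edgeR's quasi-likelihood test 0 of 37 members were called, where 11.3% of all genes tested were called, and DESeq2 called 0. At an unadjusted p under 0.05 there were 2. The median log2 fold change of the members was -0.08, with 15 above 0 and 22 below. The member farthest from 0 was Trdn (triadin, which anchors the calcium store to its release channel), at 0.234 and 0.536 CPM against 0.0408 and 0.0876 CPM after PBS, which are 2 and 4 counts. Its log2 fold change was 2.57 (adjusted p = 0.117, edgeR's quasi-likelihood test). Both exoCL656 tumors were above both PBS tumors for 10 members (27%) and below them for 6 (16.2%), and for 30.3% and 29.3% of all genes tested. Of the 38 further genes of muscle fibers tested, Fbxo32 alone was called higher and 0 lower (median 0.16). Fbxo32 was at 13.8 and 10.9 CPM, against 5.19 and 2.65 CPM after PBS. Of the markers of other tissues, 6 of 7 leukocyte genes (median 2.81), Pmp2 (Schwann cell) and Tnnt2 (cardiac) were called higher, where 1501 of all 16927 genes tested were. Plin1 was called lower among 7 adipocyte genes (median -2.94), where 419 of all genes were. The keratinocyte list summed to 96.9 and 2.19 CPM against 2.70 and 1.73 CPM (median 6.21), with 0 of 12 called by edgeR's quasi-likelihood test. The part of these tissues in the muscle values was not tested.

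The 2-dose tumors of exoCL656 and of CL656 20 µg were compared directly. Members called lower with exoCL656 numbered 30 of 37, and 0 were higher, where 12.0% of all genes tested were called lower. The median log2 fold change was -3.62 over the members and 0.03 over all genes. Ankrd23 was at 11.2 and 11.0 CPM with exoCL656, and fell by 3.03 ± 0.26 (SE) on the log2 scale from CL656 20 µg (adjusted p = 0.000432, edgeR's quasi-likelihood test). Tnnt1 was at 1.38 and 1.62 CPM and fell by 2.72 ± 0.29 (adjusted p = 0.000997). Eno3 was at 22.1 and 24.7 CPM, against 83.2 and 70.2 CPM with CL656, and fell by 1.72 ± 0.26 (adjusted p = 0.00148). None of the 3 overlapped. The members not called were Myh1, Myh2, Myh4, Neb, Ttn, Trdn and Xirp2, with adjusted p from 0.0532 for Ttn, the giant spring protein titin, to 0.176 for Myh4. Of the further genes of muscle fibers, 34 of 38 tested were called lower with exoCL656. So were 7 of 9 neuromuscular junction genes and 3 of 7 precursor genes. Of the markers of other tissues, 2 of 7 adipocyte genes tested were called lower with exoCL656 (median -2.17), 2 of 3 tendon genes (median -1.97), 2 of 5 Schwann cell genes, 3 of 8 smooth muscle genes and 2 of 4 cardiac genes. The melanocyte genes Mitf and Tyr, the leukocyte genes Cd3e and Cd8a and the endothelial gene Kdr were called higher, where 1242 of all 16927 genes tested were. Of the keratinocyte list 0 of 12 were called by edgeR's quasi-likelihood test (median 1.79). The part of these tissues in the muscle values was not tested. With the spread taken from the 4 tumors compared alone, 14 members were called, and without 1 or the other exoCL656 tumor 15 (replicate 1 left out) and 11 (replicate 2 left out).

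After 1 dose, CL656 100 µg was compared with PBS. Acta1 was at 126.9 and 150.4 CPM, against 27.0 and 37.7 CPM. Atp2a1 was at 61.6 and 81.6 CPM, against 8.77 and 24.0 CPM. Myh4 was at 107.4 and 123.6 CPM, against 7.66 and 26.0 CPM. The groups did not overlap for these 3 genes, and 36 of the 37 members tested (97.3%) had both CL656 tumors above both PBS tumors, as 33% of all genes tested had. All 37 tested had a log2 fold change above 0, from 0.17 (Tnnt1) to 2.78 (Myh4), with a median of 1.93. By edgeR's quasi-likelihood test 0 were called, where 2.44% of all genes were called, with 17 at an unadjusted p under 0.05 and a lowest adjusted p of 0.143, that of Ryr1, the calcium release channel. DESeq2 called 1. When the spread was taken from these 4 tumors alone, 32 members were called, and with no filter on low counts 33 were. Of 7 leukocyte genes, Cd3e and Cd8a were called lower with CL656 100 µg, where 105 of all 16927 genes tested were. The keratinocyte list had a median of -1.95 and the adipocyte list of 1.06, with 0 of 12 and 0 of 7 called by edgeR's quasi-likelihood test. The part of these tissues in the muscle values was not tested.

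The spread of a gene was estimated over all groups at once, and the muscle genes differed strongly between the 2 tumors of some groups. Differences between the 2 tumors of a group were taken on log2 of the CPM plus 1, which shrinks those of low genes. Between the 2 tumors with unloaded vesicles, the median absolute log2 difference was 2.07 over the 37 members and 0.12 over all genes tested. It was 1.32 against 0.09 for 1 dose of exoCL656, and 1.23 against 0.17 for 1 dose of CL656 20 µg. Members over 2-fold apart numbered 30, all higher in replicate 1, with unloaded vesicles, 30, all higher in replicate 1, with exoCL656, and 22, all higher in replicate 2, with CL656. On this scale the pairs of CL656 100 µg (0.17 against 0.09) and of 2-dose exoCL656 (0.15 against 0.14) had no member over 2-fold apart. In CPM alone the low member Trdn was over 2-fold apart in the 2-dose exoCL656 pair. The 2-dose CL656 20 µg tumors differed by 0.68 over the members and by 0.40 over all genes, with 11 members over 2-fold. The 2-dose PBS tumors differed by 0.67 against 0.22, the 1-dose PBS tumors by 0.38 against 0.08, and the CL656 tumors of the amount not given by 0.38 against 0.26.

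The 1-dose exoCL656 tumors were compared with PBS and with unloaded vesicles. Acta1 was at 148.9 and 45.8 CPM with exoCL656 and at 51.7 and 1.2 CPM with unloaded vesicles, so that these 2 groups overlapped. Myh4 was at 182.4 and 51.0 CPM, against 32.7 and 0.300 CPM, with no overlap. Against PBS, 36 of 37 members had a log2 fold change above 0 (median 1.59), and 27 (73%) had both tumors above both of PBS, as 31.7% of all genes tested had. The median was 0.50 without replicate 1 of exoCL656 and 2.21 without replicate 2. None was called by edgeR's quasi-likelihood test, where 2.62% of all genes were, with 6 at an unadjusted p under 0.05 and 1 call by DESeq2. With the spread taken from the 4 tumors alone 20 were called, and with no filter on low counts 29 were. Against unloaded vesicles the median was 1.93, and 0 were called by edgeR's quasi-likelihood test, where 2.95% of all genes were, with 13 at an unadjusted p under 0.05 and 2 calls by DESeq2. Leaving out replicate 1 of the unloaded vesicles gave 20 calls and a median of 5.52, and leaving out replicate 2 gave 0 calls and a median of 1.02. The median was 0.89 without replicate 1 of exoCL656. With no filter on low counts 32 were called. The keratinocyte list had medians of -3.54 against PBS and -2.76 against unloaded vesicles, with 0 of 12 called in each by edgeR's quasi-likelihood test. Its part in the muscle values was not tested.

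The unloaded vesicles themselves were compared with PBS. Of 37 members 0 were called by edgeR's quasi-likelihood test, with 0 at an unadjusted p under 0.05 and 0 by DESeq2, and the share of all genes called was 0%. The median of the members was -0.24. It was 0.58 without replicate 2 and -3.63 without replicate 1 of the vesicle group, and 0.05 without replicate 2 of PBS, so the direction changed with single tumors. In none of these fits was a member called.

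A single dose of CL656 at 20 µg gave a member median of 0.41 against PBS, with Acta1 at 21.9 and 93.6 CPM and Ckm at 12.6 and 30.2 CPM, which overlap the PBS values. By edgeR's quasi-likelihood test 0 members were called, where 3.14% of all genes were, with 0 at an unadjusted p under 0.05 and 0 by DESeq2. The median was 1.07 without replicate 1 and -0.50 without replicate 2. Against this group, 1 dose of exoCL656 had a member median of 0.98 and 0 calls by the same test, where 0.608% of all genes were called, with 6 at an unadjusted p under 0.05 and 1 by DESeq2. That median was 0.05 without replicate 1 of exoCL656 and 2.13 without replicate 2 of CL656, and 17 members were called with no filter on low counts. The endothelial genes Cdh5, Emcn, Kdr and Pecam1, 4 of 5 tested, were called lower with 1 dose of CL656 20 µg than with PBS (median -1.32). There 150 of all 16927 genes tested were called lower. The same 4 were called higher with exoCL656 than with CL656 20 µg (median 1.52), where 34 of all genes were. The keratinocyte list had a median of -4.8 with CL656 20 µg against PBS, with 0 of 12 called by edgeR's quasi-likelihood test. Mitf alone of 9 melanocyte genes was called lower there. The part of these tissues in the muscle values was not tested.

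The PBS tumors after 2 doses had higher values of most members than those after 1 dose, by a member median of 0.99 on the log2 scale, and 34 of 37 fold changes were above 0. Acta1 was at 66.5 and 116.8 CPM after 2 doses, above the 27.0 and 37.7 CPM after 1. By edgeR's quasi-likelihood test 0 members were called, where 1.10% of all genes were, with 1 at an unadjusted p under 0.05, 0 by DESeq2 and 18 with no filter on low counts. The keratinocyte list was lower after 2 doses, at 2.70 and 1.73 CPM against 126.7 and 70.7 CPM (median -5.53), with 0 of 12 called by the same test. The adipocyte list had a median of 1.04 with 0 of 7 called, and Cd3e alone of 7 leukocyte genes was called lower. The part of these tissues in the muscle values was not tested. The CL656 tumors of the amount not given had a member median of -0.97 against 2-dose PBS, with Acta1 at 32.5 and 50.7 CPM, below both PBS tumors. By edgeR's quasi-likelihood test 0 members were called there, where 0.959% of all genes were, with 1 at an unadjusted p under 0.05, 0 by DESeq2, 9, all lower, with the spread of the 4 tumors alone and 16, all lower, with no filter on low counts.

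The counts of other genes called were then compared with and without the muscle values in the model. Leaving the 38 genes out of the scaling moved the scale of a tumor by 0.0044 or less on the log2 scale. The summed level of the 13 fast fiber members, on the log2 scale, was next entered in the model as a covariate, and the genes other than members were counted again. For CL656 20 µg against PBS after 2 doses, 5146 other genes were called without and 3850 with the covariate, 3540 of them in both. For exoCL656 against CL656 20 µg after 2 doses the counts were 3249 and 467, with 427 in both. For exoCL656 against PBS after 2 doses, where the muscle share differed little, they were 1920 and 1829, with 1779 in both. For CL656 100 µg against PBS after 1 dose they were 413 and 179, and for exoCL656 against unloaded vesicles 499 and 177. For exoCL656 against CL656 20 µg after 1 dose they were 103 and 0. For exoCL656 and CL656 20 µg against PBS after 1 dose they were 444 and 318, and 532 and 526. Leaving out single tumors moved such counts as well. For exoCL656 against CL656 20 µg after 2 doses they became 1018 without replicate 1 and 5977 without replicate 2 of CL656, and after 1 dose 0 or 1. For CL656 20 µg and exoCL656 against PBS after 2 doses they ran from 3686 to 6964 and from 905 to 2083. After 1 dose they ran from 88 to 182 for CL656 100 µg, from 165 to 563 for CL656 20 µg and from 144 to 252 for exoCL656 against PBS, and from 224 to 347 for exoCL656 against unloaded vesicles. In the groups where muscle and treatment moved together, the covariate and the treatment cannot be told apart, so a call lost with the covariate is no measure of the part that muscle had in it.

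The length of the transcripts was compared as a check on RNA quality. At a division at 2905 bases of exon, the shorter members had a median log2 fold change of 3.63 and the longer ones of 3.46 for CL656 20 µg against PBS after 2 doses. All other genes tested had medians of 0.50 and -0.21 for the shorter and the longer genes in that comparison. For exoCL656 against CL656 20 µg the members had -4.08 and -2.96, and all other genes -0.45 and 0.25. The part of this shift by length in the muscle values was not tested.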

How the data were processed

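RNA from 18 whole B16F10 tumors was measured by RNA sequencing. Reads were filtered for quality by the authors, aligned with OSA (OmicSoft ArraySuite, GRCm38) and turned into expected counts per Ensembl gene with RSEM. The expected counts deposited by the authors were not normalized, between 8.62% and 12.5% of values per tumor were not whole, and all were rounded here. Symbols and exon lengths came from GENCODE M21 for 50376 of 50600 identifiers, and promoters from RefSeq.

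Low genes were removed with filterByExpr (minimum count 10, minimum total 15; edgeR 4.0.16, R 4.3.3). After TMM scaling, the 16 tumors of the 8 groups with a labelled amount or no agonist shared a quasi-likelihood model. All 18 tumors shared another (17110 genes tested) for CL656 of the amount not given. Adjusted p-values are edgeR's with Benjamini-Hochberg adjustment. With 2 tumors a group, they rest on a spread shared by all groups. TPM was computed from exon lengths. DESeq2 1.42.0, other scalings, filters and samples were alternatives. The procedure was also run on simulated data, in which every gene had the same spread between tumors. The muscle genes here differed more than all genes between the 2 tumors of some groups, so that run cannot vouch for their calls.

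The 38 members and all lists were chosen with earlier results of these data known. Values in single tumors were given for the most abundant member by length-scaled level of each role and the 4 adult myosin heavy chains. They were also given for at most 3 called members per comparison and direction by adjusted p. Not every one of these genes was given in every comparison or tumor. Ankrd1, Mb, Pvalb, Myot, Trdn, Ryr1, Ttn, Chrna1, Sln and the members listed as not called were named after their values were seen. From the other lists, Trim63, Rapsn, Myog, Nppb and Tyrp1 were named as the most abundant of theirs. Called genes were named in some lists, and Myh6 was named though it was neither. Protein sequences were not used here.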

Additional observations from a re-analysis of the deposited data

Results flagged for a closer look

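The change with CL656 20 µg against PBS differed between 2 doses and 1 dose in an interaction test of the same model. By edgeR's quasi-likelihood test after Benjamini-Hochberg adjustment, 14 of 37 muscle genes had a larger change after 2 doses and 0 a smaller one, where 16.8% of all genes tested differed, and the median difference of the members was 3.01 on the log2 scale. The smallest adjusted p-values were those of Ankrd23 (difference 3.67 ± 0.36 SE, adjusted p = 0.00052), Tnnt1 (2.75 ± 0.40, adjusted p = 0.00235) and Ankrd1 (6.00 ± 1.30, adjusted p = 0.00961). The difference was above 0 for 37 of 37 members.

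The difference between exoCL656 and CL656 20 µg also changed from 1 to 2 doses, for 26 of 37 members by the same test, all toward lower values with exoCL656, where 8.31% of all genes tested differed. The median was -4.57 on the log2 scale. Ankrd23 differed by -3.65 ± 0.36 SE (adjusted p = 0.00212), Tnnt1 by -2.98 ± 0.40 (adjusted p = 0.00883) and Ryr1 by -4.25 ± 0.72 (adjusted p = 0.014). For exoCL656 against PBS, 0 of 37 members differed between the numbers of doses by edgeR's quasi-likelihood test, where 6.82% of all genes did, with a median of -1.49 and a lowest adjusted p of 0.143 (Casq1, the calcium store protein). The first and second of these differences share the CL656 20 µg tumors, whose 2-dose values are the highest of the series.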

How the results depend on the processing

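The 31 members called higher with CL656 20 µg against PBS after 2 doses stayed between 29 and 37 under every alternative but leaving out a PBS tumor, and the range over single tumors left out was 19 to 30. The 30 called lower with exoCL656 against CL656 20 µg became 14 when only the groups compared were fitted and 11 to 29 with single tumors left out. All 9 counts of 0 changed with no filter on low counts, and 4 of the 9 when only the groups compared were fitted. With no filter on low counts, members called numbered 3 (unloaded vesicles against PBS), 29 (exoCL656 against PBS, 1 dose), 4 (CL656 20 µg, 1 dose), 33 (CL656 100 µg), 32 (exoCL656 against unloaded vesicles), 17 (exoCL656 against CL656 20 µg, 1 dose), 5 (exoCL656 against PBS, 2 doses), 18 (PBS, 2 doses against 1) and 16 (CL656 of the amount not given). With only the groups compared they were 0 in 5 of the comparisons, 20 for exoCL656 and 32 for CL656 100 µg against PBS after 1 dose, 1 for exoCL656 against PBS after 2 doses and 9 for CL656 of the amount not given. DESeq2 called 1, 1, 2 and 1 for exoCL656 and CL656 100 µg against PBS and exoCL656 against unloaded vesicles and CL656 20 µg, all after 1 dose, and pooling all PBS tumors gave 1 each for exoCL656 and CL656 100 µg after 1 dose. For exoCL656 against unloaded vesicles the range over single tumors left out was 0 to 20. The cause of these shifts was not tested.

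With the replicate block, 31 and 29 members were called in the first 2 comparisons and 0 in the others, so it moved no count over 1.5 times. Same-numbered tumors share only a number, and the correlation of their deviations lay between -0.164 and 0.38. RLE factors, all 18 tumors, no limit on the ratio and scaling without the members moved no count over 1.5 times. The share of counts on the members moved by over 1 SD of its group in 6 tumors without Tpm2, Ankrd1, Eno3, Ldb3 and Pygm and in 7 as a share of the length-scaled total. With 2 tumors a group, differences of the size seen between replicates cannot be told from treatment.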

Other observations

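In the CL656 tumors of the amount not given, 2 of the 9 neuromuscular junction genes tested, Chrnb1 and Dok7, were called higher than after 2 doses of PBS and 0 lower, with a median log2 fold change of 1.54, while the members had a median of -0.97 and 0.959% of all genes tested were called. With exoCL656 against PBS after 2 doses 2 of 9 (Chrnb1 and Dok7) were called higher and 0 lower by edgeR's quasi-likelihood test, with a median of 1.05 beside -0.08 for the members, where 11.3% of all genes tested were called. The muscle precursor and regeneration list had medians of 1.59 and 1.21 in these comparisons, with 0 and 1 (Cdh15) of 7 genes tested called. Both comparisons share the 2-dose PBS tumors. Markers of other tissues moved with exoCL656 as well, with 6 of 7 leukocyte genes called higher. For CL656 of the amount not given, Cd3e of the leukocyte list and Nppb of the cardiac list were called higher.

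Sln, the small regulator of the calcium pump, singled out after its values were seen, was at 30.5 and 9.39 CPM after 2 doses of CL656 20 µg, at 0.0204 and 0.285 CPM after PBS and at 0.526 and 0.338 CPM after exoCL656.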
